A study of Mus musculus with 12 samples.

Results

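Kruppel-like factors (KLFs) are zinc finger transcription factors that bind GC-rich and CACCC elements in promoters. The 10 members described here, Klf2, Klf3, Klf4, Klf5, Klf6, Klf7, Klf9, Klf10, Klf13 and Klf15, were taken by gene symbol from the 48321 genes of an RNAseq table. All 10 were found, among 17 genes whose name is Klf and a number, and all 10 passed the filter on low values described with the tests. The cells were brown adipocytes grown from WT preadipocytes immortalized with the SV40 large T antigen. The methods trace these preadipocytes to a single newborn mouse, and the series text to interscapular brown fat of C57BL/6J mice. They were stably transduced with an empty vector (Plex) or with tSema4B, a shortened Semaphorin 4B that cells secrete, built to stand for the piece that ADAM17, a protease, cuts off at the cell surface. In all groups differentiation was induced with insulin, triiodothyronine, rosiglitazone, isobutyl methylxanthine and the glucocorticoid dexamethasone, and continued in insulin and triiodothyronine alone. After 8 days the cells were kept in serum-free medium with or without 2 μM norepinephrine (NE) for 6 h. Each line was sequenced unstimulated and after NE, which gives 4 groups of 3 libraries. The series calls the 3 libraries of a group technical replicates, and each construct was represented by 1 transduced line. The p-values therefore measure the spread between these libraries, and a property of the line cannot be told apart from an effect of tSema4B.

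Values are normalized read counts, the reads on a gene divided by a size factor of the library. Between 2000780 and 5409583 reads per library fell on genes, with the vector NE libraries the deepest, and 1 read was worth 0.593 to 1.55 normalized counts. Sema4b itself took 8.53% to 10.2% of the reads in the tSema4B unstimulated libraries and 7.01% to 8.88% in the tSema4B NE libraries. The vector libraries also held much Sema4b, 3.58% to 4.02% of reads unstimulated and 2.04% to 2.57% after NE, so the mean differed between the lines by 2.41 times and 3.15 times. Reads of the native gene and of the construct could not be separated, and what the high level in the vector line stems from was not tested. The adipocyte label was checked on 6 markers (Adipoq, Pparg, Fabp4, Plin1, Cidec, Lpl), whose summed level was 32830 to 36461 in the vector unstimulated libraries and 5216 to 7823 in the tSema4B unstimulated libraries. After NE the sums were 46106 to 58577 and 9318 to 10678. The 6 brown adipocyte markers (Ucp1, Prdm16, Cidea, Ppargc1a, Dio2, Elovl3) summed to 130 to 191 in the vector unstimulated and 38.1 to 64.3 in the tSema4B unstimulated libraries. After NE they summed to 437 to 472 and 119 to 147. Of these, only Dio2 was at 0 in every group, and Ucp1 was at 0 in the tSema4B unstimulated group.

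Several KLFs act in fat cell differentiation, and they do so in opposite directions. Klf4 and Klf5 act early and help to turn on Cebpb and Pparg, Klf6 represses the preadipocyte gene Dlk1, and Klf9, Klf13 and Klf15 favour Pparg expression or the mature adipocyte programme. Klf2, Klf3 and Klf7 restrain differentiation, Klf2 by repressing Pparg and Klf3 as a repressor that recruits CtBP, while Klf10 is an early gene of the TGF-beta response. Klf15 also raises the insulin-responsive glucose transporter Slc2a4, and it is, like Klf9, a gene induced by glucocorticoids.

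Klf15 was the member on which the comparisons turned. It lies at chr6:90462576-90475238 on the plus strand (GRCm38, GENCODE), and its exons overlap those of no other annotated gene. The promoter of Klf15 is printed with that of Klf9 (gene at chr19:23141226-23168134, plus strand), because both genes are adipogenic and glucocorticoid-induced and only Klf15 passed a test. The sequences are the 250 bases before the annotated start in RefSeq (GRCm38.p6), chr6:90462326-90462575 and chr19:23140976-23141225, written 5′ to 3′ on the plus strand. Capitals mark every CACGTG and every TGACG that lies whole within the printed bases, on either strand, so that TGACG reads CGTCA at the end of the Klf15 sequence.
Klf15: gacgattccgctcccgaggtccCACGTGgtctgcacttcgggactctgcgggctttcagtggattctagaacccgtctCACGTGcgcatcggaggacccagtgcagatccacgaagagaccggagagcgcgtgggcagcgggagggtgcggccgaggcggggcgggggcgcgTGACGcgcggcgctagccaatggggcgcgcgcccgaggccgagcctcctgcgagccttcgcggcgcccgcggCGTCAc
Klf9: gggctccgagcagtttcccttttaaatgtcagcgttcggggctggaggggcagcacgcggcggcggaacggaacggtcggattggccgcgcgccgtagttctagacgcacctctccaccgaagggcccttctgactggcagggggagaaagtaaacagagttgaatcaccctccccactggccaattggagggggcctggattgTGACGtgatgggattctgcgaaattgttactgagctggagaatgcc
A search of 300-base windows, 250 bases before and 50 after the start, covered both strands and 8 members (Klf2, Klf3, Klf4, Klf6, Klf7, Klf9, Klf13 and Klf15). CACGTG, the E-box letters, occurred 3 times in the Klf15 window, where the third match spans the start, and 1 time each in the windows of Klf4 and Klf6. At least 1 match was present in 7.15% of the 32851 promoters of the table, and 3 or more in 0.0883%. GGGCGG, the GC box that KLF and Sp proteins share, was found in 7 of 8 member windows against 35.7% of all promoters, with 6 matches for Klf3 and none for Klf9. TGACG, the core that CREB recognises, which also lies within TGACGTCA, was present in 6 of 8 (20.8% of all), 2 times for Klf15 and 1 time for Klf9, and CACCC in 6 of 8 (57.5% of all). The full TGACGTCA, AGGTCA and TATAAA occurred in 0 of 8 member windows (1.79%, 16.3% and 13.6% of all). A match is a description of the letters and not a binding site.

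The members differed widely in level. Per kilobase of exon, the mean of the 12 libraries was highest for Klf10 (110) and Klf6 (104), followed by Klf9 (36.7) and Klf13 (33.2). Klf15 (19.4), Klf3 (15.2) and Klf2 (14.7) lay in the middle, and Klf7 (7.07), Klf4 (4.12) and Klf5 (3.35) were the lowest, in units of normalized count per kilobase. The place of Klf15 differed by line: unstimulated it was at 29.9 ± 6.63 per kilobase in vector and 8.50 ± 1.24 in tSema4B cells, where Klf3 was at 20.4 ± 3.06 and Klf7 at 8.08 ± 2.30 (SD, n = 3). The library values of Klf10 and Klf6 overlapped (91.4 to 131 and 86.0 to 134), so their order was within the spread. In plain normalized counts, 90.4% of the 11998 genes tested had a lower mean than Klf10 and 7.34% a lower mean than Klf4, which rested on 1 to 32 reads per library. Lengths are sums of all annotated exons, so the level per length of a gene with alternative ends is approximate. The exons of Klf7 share 3196 bases with Gm26649 and those of Klf3 share 404 with Gm20033, both on the opposite strand, so reads there could not be assigned with certainty.

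**Figure D1:**
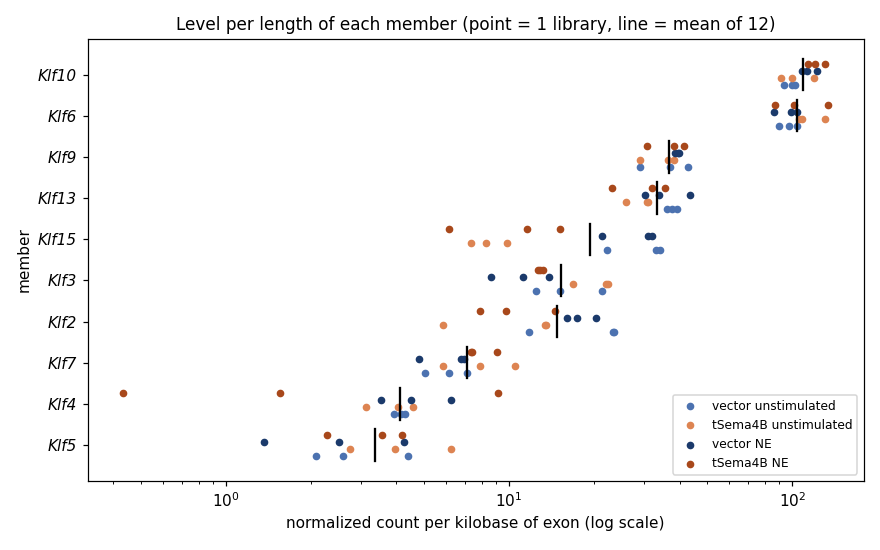
Normalized count per kilobase of exon (log scale, horizontal) for the 10 members, ordered by their mean over 12 libraries. Each point is 1 library, coloured by group, and the black line is the mean; Klf10 and Klf6 stand at the top at about the same level, and the Klf15 points split into a tSema4B cluster below the mean and a vector cluster above it.

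The first comparison asked whether the members differed between tSema4B and vector cells without stimulation. Klf15 was lower in tSema4B cells. The vector unstimulated libraries held 95.6, 92.5 and 62.1 normalized counts of Klf15, and the tSema4B unstimulated libraries 27.4, 23.2 and 20.5. The lowest vector library was above the highest tSema4B library, and the means, 83.4 ± 18.5 and 23.7 ± 3.47 (SD, n = 3), differed by 3.52 times. With limma on log2(normalized count + 1), the fold change was -1.75 (SE 0.319, adjusted p = 0.000506). Fold changes of limma below are on this log2 scale, where the added 1 shrinks the change of low genes. They compare means of log2 values, so for scattered low genes they can also exceed the fold of the group means. An example is Klf4 between the lines after NE, at 2.08 times in limma against 1.28 times from the means. Adjustment of p-values is by the Benjamini-Hochberg method over all 11998 genes tested. Klf15 was the 1 member of 10 that passed at 0.05, against 13.0% of all genes (5.64% higher and 7.39% lower). At an unadjusted p under 0.05 there were 3 members, Klf2, Klf13 and Klf15, against 26.1% of all genes. Klf15 also met the study's additional threshold of a log2 fold change of 1, as did 3.82% of all genes (2.71% lower). The groups did not overlap for 3 of 10 members (Klf6, Klf13 and Klf15), against 29.4% of all genes.

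The same difference was present after NE. Klf15 was at 89.4, 86.5 and 59.6 in the vector NE libraries and at 17.2, 32.2 and 42.3 in the tSema4B NE libraries. Again no tSema4B library reached the lowest vector library, although the tSema4B libraries were more spread out than without NE. The means, 78.5 ± 16.4 and 30.5 ± 12.6 (SD, n = 3), differed by 2.57 times, and the log2 fold change was -1.40 (limma, SE 0.319, adjusted p = 0.00303). Klf15 was again the 1 member of 10 that passed, against 21.0% of all genes (9.79% higher and 11.2% lower), and the 1 member at an unadjusted p under 0.05, against 32.9%. At both thresholds the background was 5.76% (3.73% lower). Groups that did not overlap were found for 3 of 10 members (Klf2, Klf7 and Klf15) and for 37.7% of all genes.

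The vector libraries were deeper within each condition. Klf15 rested on 57 to 110 reads per vector unstimulated library and 15 to 23 per tSema4B unstimulated library, and on 91 to 146 and 16 to 34 after NE, and mitochondrial genes took 13.4% to 16.7% of the reads in vector and 6.91% to 7.89% in tSema4B libraries. The part of depth and of mitochondrial reads in the result was not tested. Between the lines, the level of Klf15 moved with the summed adipocyte markers given above and opposite to 8 preadipocyte or fibroblast markers, which summed to 15920 to 16640 in vector unstimulated and 29892 to 33912 in tSema4B unstimulated libraries. After NE the sums of the latter were 13019 to 15211 and 28002 to 29689. None of these 8 genes was at 0 in any group. They are Pdgfra, Pdgfrb, Dlk1, Thy1, Ly6a, Col1a1, Col3a1 and Cd34. In tSema4B against vector cells 6 of the 8 were higher unstimulated and 7 after NE, beside 5.64% and 9.79% of all genes. Thy1 passed in neither condition (-0.12 and 0.10). The adipocyte sums are carried largely by Fabp4, at a mean of 24034 in vector unstimulated cells. Those of the 8 genes are carried largely by Col1a1 and Col3a1, at means of 11724 and 14462 in tSema4B unstimulated cells. The part of either marker list in the Klf15 result was not tested. In bulk RNA, fewer adipocytes and less Klf15 RNA per adipocyte cannot be told apart.

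**Figure D2:**
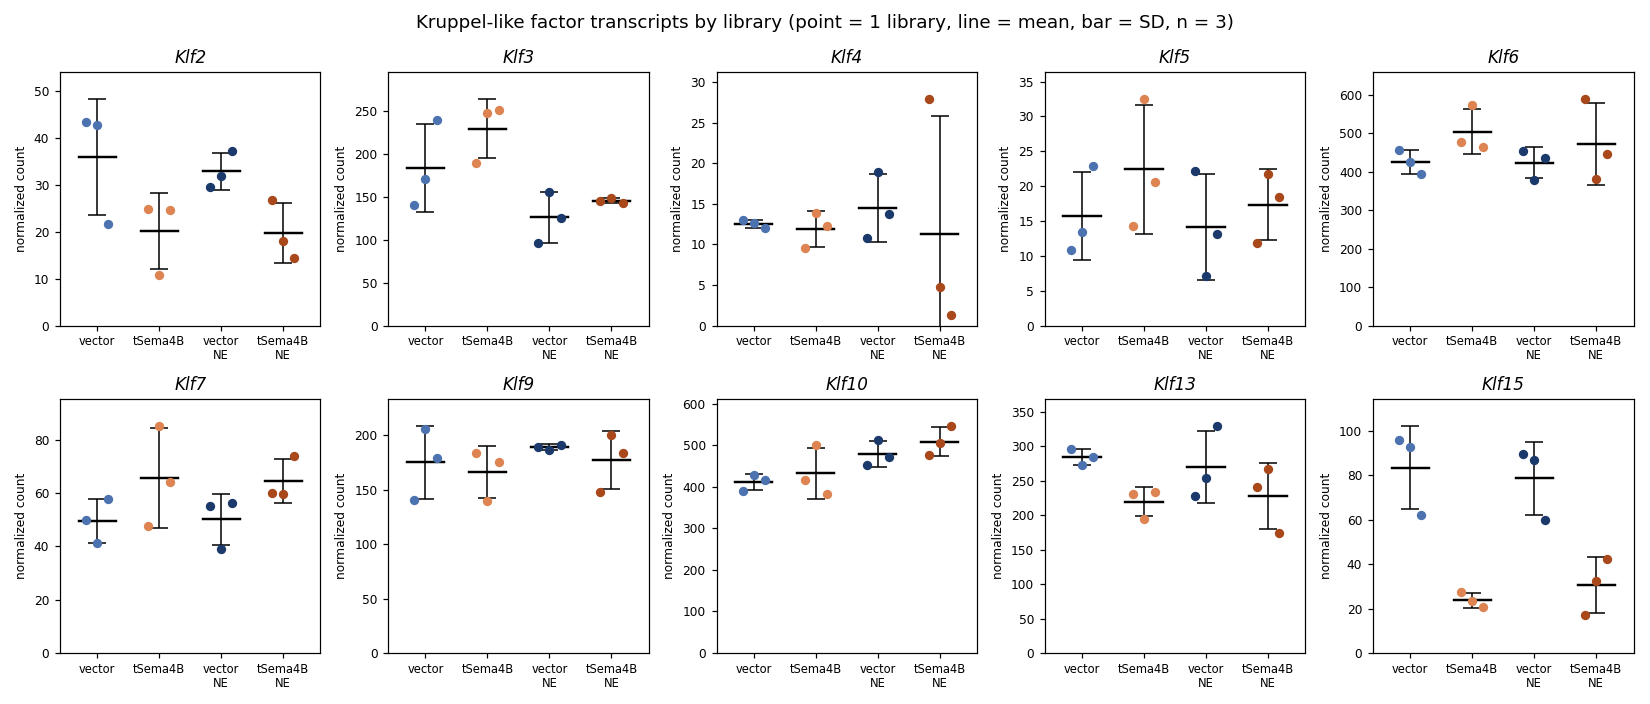
Normalized counts of the 10 members in the 4 groups, each panel starting at 0. Points are libraries, the line is the mean and the bar the SD (n = 3; the lower bar of Klf4 in tSema4B NE runs below 0 and is not drawn there); Klf15 is the panel in which all tSema4B points lie below all vector points with and without NE.

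The other members counted as activators of adipogenesis did not pass the test between the lines. Klf4 was at 13.0, 12.6 and 12.0 in vector unstimulated and at 9.53, 13.9 and 12.3 in tSema4B unstimulated libraries, which overlap. After NE, Klf4 was at 10.8, 19.0 and 13.7 in vector cells, whereas the tSema4B libraries scattered from 27.9 to 4.73 and 1.32. These 3 values rest on 26, 5 and 1 reads. The means after NE, 14.5 ± 4.16 in vector and 11.3 ± 14.5 in tSema4B cells (SD, n = 3), differed by 1.28 times. The log2 fold change after NE was -1.06 (limma, SE 0.660, adjusted p = 0.279), without tSema4B NE replicate 1, the high library, it was -2.05 (adjusted p = 0.0157), and without replicate 3, the low one, -0.23 (adjusted p = 0.839).

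Klf5, an activator of Pparg, ranged from 7.11 to 32.5 over the 12 libraries, with overlapping groups in both comparisons of the lines. Its log2 fold changes were 0.48 (95% interval -0.53 to 1.48) and 0.37 (-0.64 to 1.37), and both intervals reach past a log2 fold change of 1. Klf6 was measured more precisely. Its vector unstimulated values were 457, 426 and 394 and its tSema4B unstimulated values 477, 572 and 464, which do not overlap, yet the log2 fold change of 0.24 (limma, adjusted p = 0.287) missed the threshold. After NE the Klf6 groups overlapped (378 to 455 in vector and 382 to 589 in tSema4B).

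Klf9 was nearly level. Its group means were 175 ± 33.1 in vector unstimulated, 166 ± 23.6 in tSema4B unstimulated, 189 ± 2.58 in vector NE and 177 ± 26.5 in tSema4B NE (SD, n = 3). The intervals of its log2 fold change between the lines were -0.42 to 0.28 unstimulated and -0.45 to 0.25 after NE. A difference as large as that of Klf15 lies outside both. Klf13 was at 295, 272 and 284 in vector unstimulated and at 231, 195 and 233 in tSema4B unstimulated libraries, with no overlap. The log2 fold change was -0.37 (limma, unadjusted p = 0.0305, adjusted p = 0.138), and after NE it was -0.25 (adjusted p = 0.288) with overlapping groups.

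Of the members that restrain adipogenesis, Klf2 had the lower mean in tSema4B cells and Klf3 and Klf7 the higher, and none passed. Klf2 was at 43.4, 42.9 and 21.8 in vector unstimulated and at 25.0, 10.8 and 24.6 in tSema4B unstimulated libraries, where vector library 3 falls among the tSema4B values. After NE it was at 29.6, 32.0 and 37.3 in vector and at 26.8, 17.99 and 14.5 in tSema4B libraries, which do not overlap. The log2 fold changes were -0.83 (limma, SE 0.400, adjusted p = 0.191) and -0.75 (adjusted p = 0.203). Klf2 and Klf4 are also strongly expressed in endothelium. Of 6 endothelial markers 1 passed the filter, Pecam1, which ranged from 4.34 to 17.2 normalized counts. Its means were 7.32 in vector and 14.1 in tSema4B unstimulated cells, and 7.88 and 13.8 after NE. The log2 fold changes between the lines, 0.93 and 0.83, did not pass (limma). Kdr, Tie1 and Esam were at 0 in all groups. Tek was at 8.21 in tSema4B unstimulated replicate 3 and at 4.73 in tSema4B NE replicate 2. Cdh5 was at 0.947 in tSema4B NE replicate 2. Both were at 0 in all other libraries. The part of endothelial cells in the Klf2 and Klf4 levels was not tested.

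Klf3 was at 140, 171 and 240 in vector unstimulated and at 190, 248 and 251 in tSema4B unstimulated libraries. Klf7 was at 49.95, 41.2 and 57.7 in vector unstimulated and at 47.7, 85.1 and 64.3 in tSema4B unstimulated libraries. After NE, Klf7 was at 55.1, 39.1 and 56.3 in vector and at 60.1, 59.6 and 74.0 in tSema4B libraries, which do not overlap. The log2 fold changes of Klf7 were 0.37 in both comparisons (limma, adjusted p = 0.407 and 0.358), and those of Klf3 were 0.34 and 0.23 (adjusted p = 0.287 and 0.448).

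Klf10, with Klf6 the most abundant member, did not pass between the lines. Its log2 fold change was 0.06 (interval -0.17 to 0.30) unstimulated and 0.09 (-0.15 to 0.32) after NE. Over the 10 members the median log2 fold change was close to 0 in each comparison of the lines, -0.0019 unstimulated and -0.0077 after NE, as was that of all genes (-0.0025 and -0.010). In each comparison 5 members had a positive and 5 a negative fold change.

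**Figure D3:**
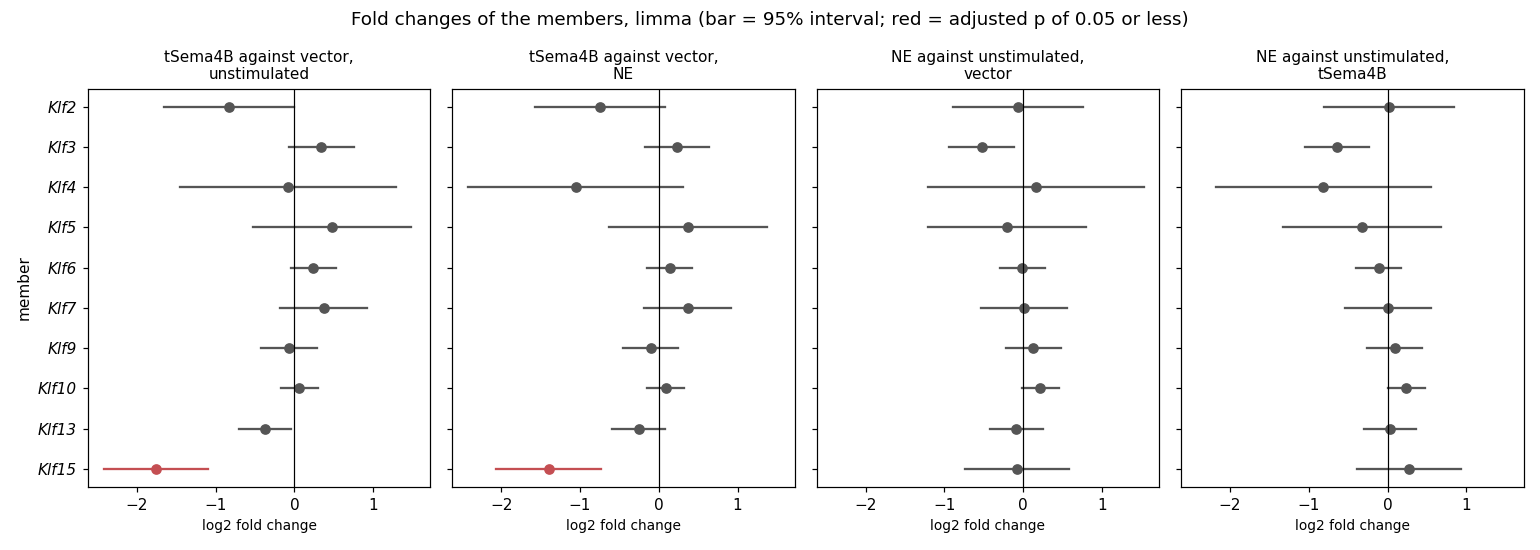
Log2 fold changes (horizontal) of the 10 members in 4 comparisons, from limma, with 95% intervals as bars. Red marks an adjusted p of 0.05 or less: only Klf15 in the 2 comparisons of tSema4B with vector is red, and the interval of Klf3 lies below 0 in both NE comparisons without passing the adjusted threshold.

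The next comparisons asked whether the members responded to 6 h of NE in each line. No member passed in vector cells (limma, 0 of 10, against 11.6% of all genes, 6.82% higher and 4.78% lower). At an unadjusted p under 0.05 there was 1 member, against 23.9% of all genes. On the recovered reads edgeR and DESeq2 also called 0 members, against 13.1% and 14.8% of all genes. Over all genes limma called 1392, and 921 without vector unstimulated replicate 1 or 750 (6.25%) without vector NE replicate 3. In tSema4B cells limma called 0 of 10, against 6.25% of all genes (3.68% higher and 2.58% lower), with 2 members at an unadjusted p under 0.05, against 19.9%. There edgeR called 0 members, against 5.74% of all genes, and DESeq2 called 1, Klf3, against 7.03%. Fitted on the libraries of each comparison alone, limma called 2061 genes (17.2%) in vector cells in place of 1392, and 382 (3.18%) in tSema4B cells in place of 750. At both thresholds the background was 2.63% in vector and 2.07% in tSema4B cells.

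Klf3 had the lowest adjusted p of the members in both lines. In vector cells it was at 140, 171 and 240 without NE and at 96.8, 156 and 126 with NE, and the groups overlapped. In tSema4B cells it was at 190, 248 and 251 without NE and at 145, 149 and 143 with NE, which do not overlap. The log2 fold changes were -0.53 in vector (limma, SE 0.197, adjusted p = 0.0897) and -0.64 in tSema4B cells (adjusted p = 0.0553). Both values lie just above the threshold, and which side they fell on depended on the setting. In vector cells Klf3 passed without vector unstimulated replicate 1 (-0.70) or without vector NE replicate 2 (-0.69). In tSema4B cells it passed without tSema4B unstimulated replicate 1 (-0.77).

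Klf10 had the next lowest adjusted p of the members in both lines. It was at 390, 429 and 416 in vector unstimulated and at 452, 513 and 471 in vector NE libraries, with no overlap. In tSema4B cells it went from 416, 500 and 382 without NE to 476, 505 and 546 with NE. The log2 fold changes were 0.22 (limma, adjusted p = 0.257) and 0.24 (adjusted p = 0.238). Groups that did not overlap were found for 1 of 10 members in vector cells, Klf10, and for 1 in tSema4B cells, Klf3, against 33.3% and 20.7% of all genes.

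Klf15 did not pass a test with NE in either line. Its log2 fold changes were -0.08 (interval -0.74 to 0.58) in vector and 0.27 (-0.39 to 0.93) in tSema4B cells. The order of its group means was vector unstimulated, vector NE, tSema4B NE and tSema4B unstimulated, and only the step between the lines was free of overlap. Klf6 and Klf7 gave log2 fold changes with NE of -0.01 and 0.01 in vector cells and of -0.11 and 0.0068 in tSema4B cells. Those of Klf2, Klf4, Klf5, Klf9 and Klf13 lay between -0.21 and 0.16 in vector and between -0.82 and 0.09 in tSema4B cells, the lowest being that of Klf4. The Klf4 means in tSema4B cells, 11.9 without and 11.3 with NE, differed by only 1.05 times.

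The difference between the lines in the response to NE was tested as an interaction. No member passed (limma, 0 of 10, against 0.0250% of all genes), 0 had an unadjusted p under 0.05, against 10.2% of all genes, and edgeR and DESeq2 called 0 as well. Over all genes the interaction was called for 3 genes by limma, 4 by edgeR (0.0333%) and 101 by DESeq2 (0.842%). The limma number lay between 1 and 31 when single libraries were left out, the highest without tSema4B unstimulated replicate 2. The interaction ranged from -0.98 for Klf4 to 0.36 for Klf15 on the log2 scale, and the lowest adjusted p was 0.784. For Klf15 its 95% interval was -0.58 to 1.29.

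The further KLF and Sp genes were mostly out of range. Of 8 other Klf genes, 7 were in the table and 2 were tested, Klf11 and Klf16, which did not pass in any comparison, while Klf14 and Klf17 had no read in any library. Of 9 Sp genes, 4 were tested, and 1 passed in 1 comparison: Sp3, an activator or repressor at GC boxes, was lower in tSema4B unstimulated than in vector unstimulated cells (-0.39, limma adjusted p = 0.0364), beside 7.39% of all genes. Among 16 cofactors and regulators of KLFs, all tested, 0 passed between the unstimulated lines in limma, against 13.0% of all genes. After NE 3 of the 16 were higher in tSema4B cells, beside 9.79% of all genes, namely Wwp1 (0.68), a ubiquitin ligase, Hdac1 (0.54), a histone deacetylase, and Sin3a (0.41), the scaffold of a deacetylase complex. With NE, Mef2a, a transcription factor, was the 1 of the 16 that was lower in vector cells (-0.60), beside 4.78% of all genes. In tSema4B cells 0 of the 16 passed with NE, against 6.25% of all genes.

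A list of 13 adipogenic genes tied to KLFs was chosen with earlier results of these data known. In tSema4B unstimulated against vector unstimulated cells 9 of them were lower and 2 higher, beside 7.39% and 5.64% of all genes (median log2 fold change -1.92, all genes -0.0025). Fabp4, a fatty acid carrier, was at 4091 ± 1090 against 24034 ± 974, Slc2a4, the Klf15 target named above, at 22.2 ± 5.14 against 143 ± 55.1, and Cebpa, a master regulator of adipogenesis, at 37.7 ± 9.05 against 219 ± 43.3 (SD, n = 3). The fold changes were -2.59, -2.57 and -2.52. Pparg fell by 1.84 on the log2 scale, Cebpd (0.76) and Dlk1 (0.37) rose, and Cebpb did not pass (39.8 ± 2.40 in vector and 47.9 ± 26.8 in tSema4B cells). After NE 8 of the 13 were lower and 1, Dlk1 (0.55), was higher, beside 11.2% and 9.79% of all genes, with Fabp4 at -2.88, Cd36 at -2.42 and Adipoq at -2.29. Cebpb did not pass there either (-0.50, limma adjusted p = 0.248), at 94.1 ± 7.61 in vector NE and 66.6 ± 7.60 in tSema4B NE cells. With NE, 3 of the 13 were higher and 4 lower in vector cells, beside 6.82% and 4.78% of all genes, with Cebpd at 1.35, Cebpb at 1.22 and Plin1 at -0.97. In tSema4B cells 3 of the 13 were higher and 2 lower with NE, beside 3.68% and 2.58%, with Lpl at 1.03, Cebpd at 0.92 and Egr2 at -0.81. In the interaction 1 of the 13 passed, with a positive value, and 0 passed with a negative one, beside 0.0250% of all genes. The list shares Adipoq, Pparg, Fabp4, Plin1 and Lpl with the adipocyte markers.

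Of 6 brown adipocyte genes tested, 4 were lower in tSema4B cells in each condition, beside 7.39% of all genes unstimulated and 11.2% after NE, led without NE by Ucp1, Cox7a1 and Cidea. Unstimulated, Ucp1 was at 12.1 ± 2.98 in vector and at 0 in tSema4B libraries, Cox7a1 at 38.5 ± 5.41 and 3.02 ± 2.78, and Cidea at 52.2 ± 10.8 and 6.21 ± 1.37 (SD, n = 3). After NE the log2 fold changes were -4.04 for Cox7a1, -2.36 for Cidea and -2.12 for Ucp1. Prdm16 (-1.17 unstimulated and -0.31 after NE) and Ppargc1a (0.41 and 0.36, the opposite direction) passed in neither condition. Among 10 glucocorticoid-responsive genes, 3 were lower and 2 higher in the unstimulated comparison, beside 7.39% and 5.64% of all genes, with Per1 (-1.28), Zbtb16 (-0.94) and Cdkn1a (-0.78) lower and Errfi1 (0.60) and Mt2 (0.60) higher, so the list had no single direction. After NE 1 of 10 was lower (Zbtb16, -1.02) and 1 higher (Errfi1, 0.67), close to the shares of all genes (11.2% and 9.79%). Of 7 TGF-beta response genes tested, 0 passed between the unstimulated lines, against 13.0% of all genes. After NE 1 was higher in tSema4B cells, Tgfb1i1 (0.84), beside 9.79% of all genes. With NE, 0 of the 7 passed in vector cells, against 11.6% of all genes. In tSema4B cells 1 was lower, Ltbp2 (-0.91), beside 2.58%. Of the 10 glucocorticoid-responsive genes, 2 were higher with NE in vector cells, Mt2 (2.10) and Errfi1 (0.51), beside 6.82%. In tSema4B cells 3 were higher and 1 lower, beside 3.68% and 2.58%, with Mt2 (1.22), Cdkn1a (0.86), Errfi1 (0.57) and Sgk1 (-0.75).

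Genes outside the family changed with NE in both lines. Of 14 immediate-early genes tested, 7 were higher and 1 lower in vector cells, beside 6.82% and 4.78% of all genes, led by the nuclear receptor Nr4a1 (1.71), the cAMP-induced Crem (1.69) and the AP-1 subunit Junb (1.59), with Egr1 (-0.69) the lower one. In tSema4B cells 5 were higher and 1 lower, beside 3.68% and 2.58%, with Crem at 1.40, Junb at 1.24 and Fosl2 at 0.81 the largest and Egr1 (-0.49) the lower one. Nr4a1 did not pass there (-0.17, limma adjusted p = 0.850). Between the unstimulated lines 1 of the 14 was higher in tSema4B cells, Egr1 (0.68), and 1 lower, Myc (-0.49), beside 5.64% and 7.39% of all genes. Between the lines after NE 1 was higher, Egr1 (0.88), and 3 lower, led by Nr4a1 (-1.60) and Myc (-0.88), beside 9.79% and 11.2%. Ucp1, the uncoupling protein of brown fat, rose with NE in both lines, to 276 ± 14.5 in vector and to 62.9 ± 3.10 in tSema4B cells (SD, n = 3). It was the 1 of the 6 brown adipocyte genes tested that passed with NE in vector cells, where 6.82% of all genes were higher. Prdm16 (-0.23) and Ppargc1a (-0.58) did not pass there. In tSema4B cells 2 of the 6 were higher with NE and 0 lower, beside 3.68% and 2.58% of all genes.

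The genes whose pattern was most like that of Klf15 were sought among 8252 genes with a mean of at least 50 normalized counts. Over the 12 libraries, Pearson's r of the log2 values was 0.966 for Bok, 0.954 for Ppp2r4 and 0.952 for Pcx, the pyruvate carboxylase gene. Bok was at 455 ± 55.5 in vector and 114 ± 18.5 in tSema4B unstimulated cells, and at 374 ± 50.4 and 105 ± 27.8 after NE (SD, n = 3). Cebpa came at rank 36 (r = 0.925) and Pparg at rank 265 (r = 0.839), Cebpb had an r of 0.180 and Dlk1 of -0.680. These correlations describe libraries that share the split between the 2 lines, and carry no test.

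**Figure D4:**
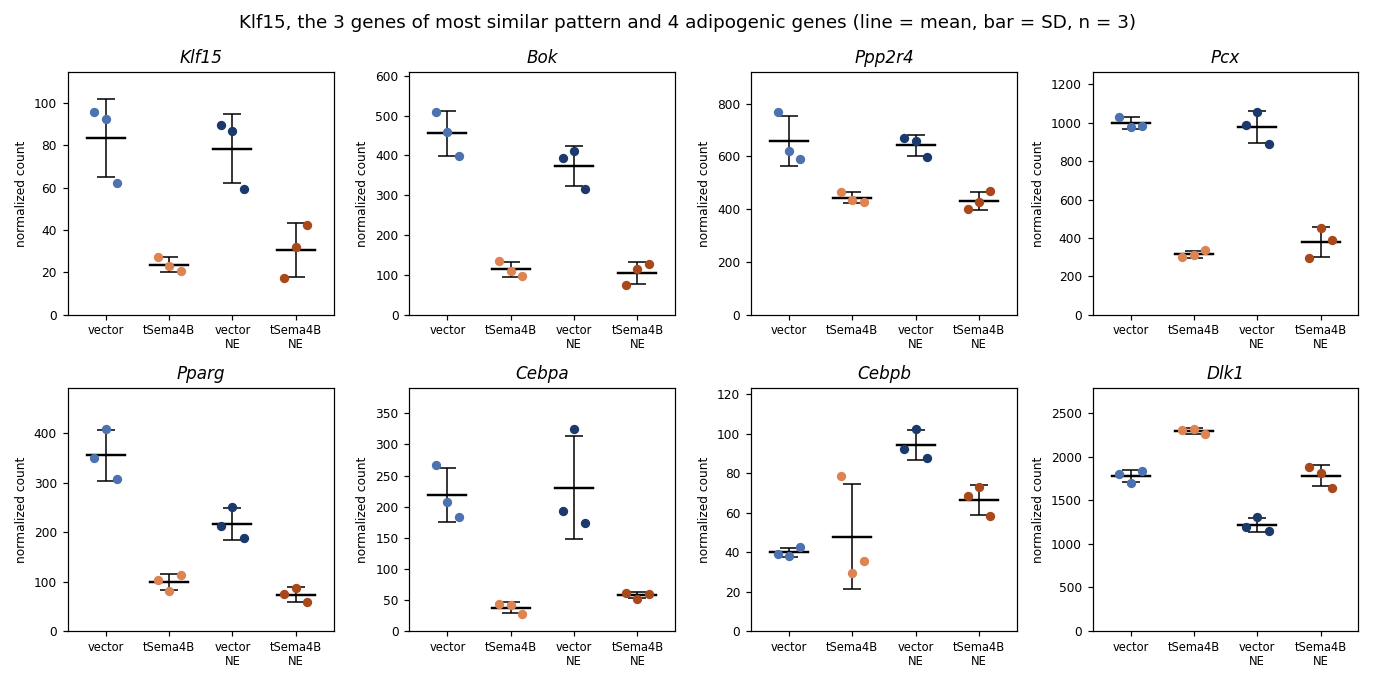
Normalized counts by library (points), with mean and SD (n = 3), of Klf15, of Bok, Ppp2r4 and Pcx, and of Pparg, Cebpa, Cebpb and Dlk1. The first 6 panels show lower tSema4B than vector points in both conditions. Cebpb shows overlapping groups unstimulated and lower tSema4B points after NE, and Dlk1 is higher in tSema4B cells.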

How the data were processed

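RNAseq was read from 12 libraries in 4 groups of 3, assigned from their labels. Per the paper's methods, full-length cDNA was made by SMART-Seq2, and reads were screened, aligned with STAR 2.7.9a to mm10 (GRCm38.p4) and counted per gene with htseq-count. The signal the authors deposited is a count divided by a DESeq2 size factor. The annotation and the strand setting are not given in the sources used here. Whole reads were recovered for 100% of values (tolerance 0.01). A pseudocount of 1 was added, a gene was tested if 3 or more of the 12 libraries reached 10 normalized counts (11998 genes), and 1 limma 3.58.1 model (R 4.3.3) of the 4 groups with a variance trend was fitted. All p-values are two-sided and Benjamini-Hochberg adjusted unless stated. A permutation test of 3 against 3 libraries cannot go below 0.10. Alternatives included edgeR 4.0.16 and DESeq2 1.42.0 on the whole reads, other pseudocounts, filters and scalings, and leaving out each library. Scripts were tested on simulated data. The members and gene lists were chosen with earlier results of these data known. All members were named. Of other lists, at most the 3 largest changes among genes that passed were named, plus Pparg, Cebpa, Cebpb and Dlk1. Cebpd, Egr1, Errfi1, Mt2, Prdm16, Ppargc1a and the Nr4a1 value with NE in tSema4B cells were added after their values were seen. For genes like Klf15, the 3 highest correlations were named. Reads are PCR products without molecular identifiers. Authors' comparisons were not used.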

Additional observations from a re-analysis of the deposited data

How the results depend on the processing

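Klf15 was lower in tSema4B than in vector cells and passed in both conditions under every alternative run. Leaving out each library in turn gave log2 fold changes of -1.95 to -1.64 unstimulated and -1.67 to -1.05 after NE, and the highest adjusted p over all alternatives was 0.0060 and 0.021. The call of Klf3 with NE in tSema4B cells depended on the setting: 1 member passed with a pseudocount of 10, a filter at 50 normalized counts, DESeq2 or the replicate block, with adjusted p between 0.034 and 0.045. Leaving out single libraries gave counts of passing members of 1 to 2 between the lines after NE (Klf4 the second; at both thresholds also 1 to 2), and of 0 to 1 for NE in each line. Replicate numbers did not pair the libraries (18 correlations of deviations between -0.047 and 0.028), and the replicate block changed no other call. Of 885 alternative fold changes of members, 804 kept their direction and side of the threshold, 8 newly passed, 0 lost a call and 73 changed sign, all in comparisons that the member had not passed. The cause of those sign changes was not tested. Among them were Klf4 between the unstimulated lines with quantile normalization (0.013) and Klf10 scaled to the total of nuclear genes (-0.024). Klf7 with NE in vector cells was at -0.034 and -0.0057 scaled to the total of all and of nuclear genes, and in the interaction at 0.065 and 0.033, where Klf9 was at 0.033 and 0.00012. With NE in tSema4B cells, edgeR and DESeq2 gave -0.034 and -0.039 for Klf2 and -0.013 and -0.020 for Klf7. Leaving out single libraries turned further values around 0. The ranges for the unstimulated lines were Klf4 -0.19 to 0.059, Klf9 -0.22 to 0.059 and Klf10 -0.045 to 0.15. The ranges for the lines after NE were Klf5 -0.018 to 0.74, Klf6 -0.030 to 0.28 and Klf9 -0.20 to 0.020. The ranges for NE in vector cells were Klf2 -0.39 to 0.097, Klf4 -0.040 to 0.34, Klf5 -0.58 to 0.18, Klf6 -0.067 to 0.067, Klf7 -0.11 to 0.18, Klf9 -0.022 to 0.25, Klf13 -0.24 to 0.026 and Klf15 -0.28 to 0.10. The ranges for NE in tSema4B cells were Klf2 -0.36 to 0.21, Klf4 -1.81 to 0.0084, Klf6 -0.28 to 0.030, Klf7 -0.20 to 0.21, Klf9 -0.029 to 0.22, Klf13 -0.096 to 0.21 and Klf15 -0.00045 to 0.63. The ranges for the interaction were Klf2 -0.29 to 0.40, Klf3 -0.32 to 0.062, Klf5 -0.50 to 0.26, Klf6 -0.27 to 0.042, Klf7 -0.21 to 0.20, Klf9 -0.16 to 0.11, Klf10 -0.060 to 0.13 and Klf13 -0.0084 to 0.30. Other values kept their sign but moved by over 1.5 times: between the unstimulated lines Klf2 -1.15 to -0.46, Klf3 0.17 to 0.55, Klf5 0.18 to 0.77, Klf6 0.15 to 0.30 and Klf7 0.17 to 0.58, after NE Klf3 0.054 to 0.40, Klf4 -2.05 to -0.23, Klf7 0.20 to 0.46, Klf10 0.037 to 0.14 and Klf13 -0.38 to -0.076, with NE Klf3 -0.70 to -0.32 in vector and Klf5 -0.59 to -0.025 and Klf10 0.16 to 0.35 in tSema4B cells, and in the interaction Klf4 -1.97 to -0.15 and Klf15 0.083 to 0.71.

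Depth limits the low members: Klf4 and Klf5 had at most 32 and 33 reads in a library.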
